A study of Mus musculus with 6 samples.

Results

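The chemokine genes Xcl1, Ccl1, Ccl3, Ccl4 and Ccl5, which T cells are known to transcribe, were followed in 6 libraries of T cells sorted from mouse kidney. They were found by symbol and are 5 of the 32285 features in the deposited matrices. Each was read as unique molecular identifiers (UMIs, tags that count captured RNA molecules), both summed over a library and cell by cell. All libraries came from male wild-type C57BL/6J mice aged 7 to 8 weeks. In the control groups the kidneys were normal. In the IR groups both renal pedicles had been clamped for 30 min (ischemia-reperfusion, IR), and serum creatinine at 24 h served as the check of injury. Live CD45+ cells carrying the αβ T cell receptor were sorted as CD4+ (CD4), CD8+ (CD8) or negative for both (double negative, DN), and each of the 6 combinations of condition and subset was profiled as 1 library with 10x 3′ chemistry. With 1 library per group no difference had a replicate check, and no test was run. A fit of condition across the 3 subsets would have taken the differences between subsets as its error and was not made, so each subset is described on its own. How many mice a library was made from is not stated in those sources that were read.

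Chemokines are small secreted proteins that steer leukocytes by binding seven-transmembrane receptors on them, and most are named by the spacing of cysteines near their amino terminus. CC chemokines carry an adjacent pair of these cysteines, whereas XCL1, also called lymphotactin, lacks that pair. Activated and memory T cells and natural killer cells are well known sources of XCL1, CCL3, CCL4 and CCL5. XCL1 acts on XCR1, found on cross-presenting dendritic cells. CCL1 acts on CCR8, found on some regulatory and type-2 helper T cells. CCL3 and CCL5 act on CCR1, and CCL5 also on CCR3.

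Xcl1 (ENSMUSG00000026573) lies on mouse chromosome 1, and the other genes lie on chromosome 11, in mm10 with the GENCODE M21 annotation. Xcl1 occupies chr1:164931644-164935527 on the minus strand. Ccl5 (ENSMUSG00000035042) occupies chr11:83525778-83530518 on the minus strand, Ccl3 (ENSMUSG00000000982) chr11:83647844-83649355 on the minus strand and Ccl4 (ENSMUSG00000018930) chr11:83662584-83664683 on the plus strand. Ccl3 and Ccl4 are thus neighbours on opposite strands with 13228 bases between them, and Ccl5 sits 117325 bases from Ccl3. Ccl1 (ENSMUSG00000020702) is annotated over chr11:82176657-82305690 on the minus strand, but a noncoding transcript sets that far end and both of its coding transcripts end at 82179812. The only annotated overlap was that of Xcl1 with Gm20743 on the opposite strand, whose UMIs were 0.689 to 1.20% of those of Xcl1 in every library. The sources used here do not say whether the authors' counting used strand.

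The second of 3 exons of each coding transcript is shown because it carries the cysteine codons that give the families their names, and because Ccl3 and Ccl4, whose readouts are compared below, had the most similar coding sequences among the 10 pairs. The sequences are read 5′ to 3′ on the coding strand from mm10 with GENCODE M21, and capitals mark the in-frame cysteine codons (TGT or TGC). The exons lie at chr1:164932895-164933009 (Xcl1), chr11:82178019-82178133 (Ccl1), chr11:83648569-83648680 (Ccl3), chr11:83663459-83663573 (Ccl4) and chr11:83529156-83529267 (Ccl5).
Xcl1: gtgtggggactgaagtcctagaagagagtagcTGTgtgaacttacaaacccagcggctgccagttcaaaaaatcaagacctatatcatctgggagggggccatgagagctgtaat
Ccl1: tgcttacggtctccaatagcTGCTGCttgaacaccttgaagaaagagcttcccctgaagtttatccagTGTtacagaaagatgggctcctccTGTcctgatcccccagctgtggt
Ccl3: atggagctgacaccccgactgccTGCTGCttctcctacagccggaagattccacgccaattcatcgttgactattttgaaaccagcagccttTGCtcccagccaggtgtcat
Ccl4: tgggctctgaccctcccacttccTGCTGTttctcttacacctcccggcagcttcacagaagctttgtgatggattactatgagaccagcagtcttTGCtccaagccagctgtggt
Ccl5: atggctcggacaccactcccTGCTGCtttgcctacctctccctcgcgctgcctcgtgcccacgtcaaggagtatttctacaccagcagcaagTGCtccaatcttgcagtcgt
The 4 CC chemokines hold 2 adjacent capital codons, and Xcl1 holds a single capital codon. Over 270 aligned coding bases Ccl3 and Ccl4 were 69.6% identical, against 52.0 to 64.3% for the other 9 pairs. Even so, no run of more than 9 bases was shared by the Ccl3 and Ccl4 transcripts.

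After filtering, 47938 T cells were retained of 54039 barcodes, between 4042 and 10108 per library. Median depth was 6626 to 8364 UMIs per cell in the control libraries and 1450 to 2356 in the IR libraries, and ribosomal genes took a median of 15.1 to 21.1% of a cell's UMIs in control and 26.9 to 44.2% in IR. The file headers name Cell Ranger 5.0.1 for the control and 6.0.1 for the IR libraries, so condition, depth and software version cannot be told apart. Levels are therefore given as CPM, the UMIs of a gene scaled to a fixed total of the retained UMIs (105 features, namely the mitochondrial and ribosomal genes with Malat1, were set aside), with exact 95% Poisson intervals, and shares of cells are given after each cell was thinned to 1000 UMIs, with exact 95% binomial intervals. All intervals cover counting error only. T-cell markers came to 6744 to 8968 CPM in the 6 libraries, and Cd4, Cd8a and Cd8b1 together to 214, 2238 and 1.93 CPM in the CD4, CD8 and DN controls, with the same order in IR (153, 1496 and 2.96 CPM). Summed markers of natural killer cells were 4.37 to 128 CPM, of γδ T cells 14.3 to 334 CPM and of myeloid cells 102 to 247 CPM. Of the γδ markers, the δ chain gene Trdc did not exceed 5.60 CPM in any library. B-cell markers reached at most 26.2 CPM, erythroid markers 25.3 CPM, platelet markers 11.6 CPM, tubule markers 3.19 CPM and mast cell and basophil markers 2.28 CPM, and endothelial markers were at 45.6 to 129 CPM. Of the T cells, 623 (1.30%) carried a barcode also seen in another library, and 294 of the 339 barcodes removed as non-T cells did so.

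The chemokine genes fell into a CD8-high group, Ccl3, Ccl4 and Ccl5, and a group that was not highest in CD8, Xcl1 and Ccl1. Differences of at least 2-fold, with at least 10 CPM on the higher side, were counted for these and for all genes. In control, 3 of the 5 were higher in CD8 than in CD4 (Ccl3, Ccl4, Ccl5), as were 1.75% of all genes tested, and 1 was lower (Ccl1), as were 2.61%, with 4.36% different in either direction. Against control CD8, DN was higher for 1 (Ccl1, beside 3.55% of all genes) and lower for 3 (Ccl3, Ccl4, Ccl5, beside 3.03%), with 6.58% of genes in either direction. Against control CD4, DN was higher for 2 (Ccl3 and Ccl4, beside 1.35% of genes) and lower for none (beside 1.4%, or 2.75% in either direction). Summed natural killer markers were at 4.37 CPM in control CD4 and 128 CPM in control DN, where Klra7 alone was at 106 CPM. Without cells that had an Ncr1 or Trdc UMI neither gene was counted. The log2 ratio of Ccl4 was then 0.93, under the 2-fold limit. That of Ccl3 was 1.16, still above 2-fold, but its level was under 10 CPM in both libraries. IR CD8 against IR CD4 gave 3 higher (3.9% of all genes) and 2 lower (3.73%, or 7.62% in either direction). IR DN against IR CD8 gave 2 higher (7.74%) and 3 lower (4.21%, or 11.9% in either direction). IR DN against IR CD4 gave 2 higher, Xcl1 and Ccl4 (4.84%), and none lower (2.46%, or 7.31% in either direction).

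IR against control gave 3 such differences in all. In CD4, 1 of the 4 genes tested was higher in IR (Ccl5), as were 7.73% of all genes, and none was lower, as were 15.1% (22.8% in either direction). Ccl3 was under 10 CPM in both CD4 libraries and was not tested. In DN, Ccl5 was likewise higher, as were 8.32% of all genes, and Ccl1 was lower, as were 11.3% (19.6% in either direction). The Ccl1 difference was 2.05-fold, close to the limit, and was not counted with DESeq2 size factors (log2 ratio -0.96), without cells that had an Ncr1 or Trdc UMI (-0.97), with the top 5% of barcodes kept (-0.67) or in thinned cells (-0.64). In CD8 none of the 4 genes tested was counted in either direction, while 7.93% of all genes were higher and 17.7% lower (25.6% in all). Ccl1 was under 10 CPM in both CD8 libraries (8.41 CPM in control, 2.33 CPM from 15 UMIs in IR) and was not tested. Its log2 ratio of IR over control in CD8 was -1.85 (-2.70 to -1.11). The median log2 ratio of IR over control over all genes tested was -0.26 in CD4, -0.38 in CD8 and -0.26 in DN. Of the genes that differed, 33.9% were higher in IR in CD4, 30.9% in CD8 and 42.5% in DN. Those splits depended on the scaling: they were 44.4%, 48.1% and 51.0% with DESeq2 size factors, and 11.7%, 9.66% and 26.2% when mitochondrial and ribosomal features stayed in the totals. Without a minimum CPM they were 70.2%, 73.4% and 82.1%, and the median log2 ratios over all genes were 0.12, 0.23 and 0.41.

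**Figure D1:**
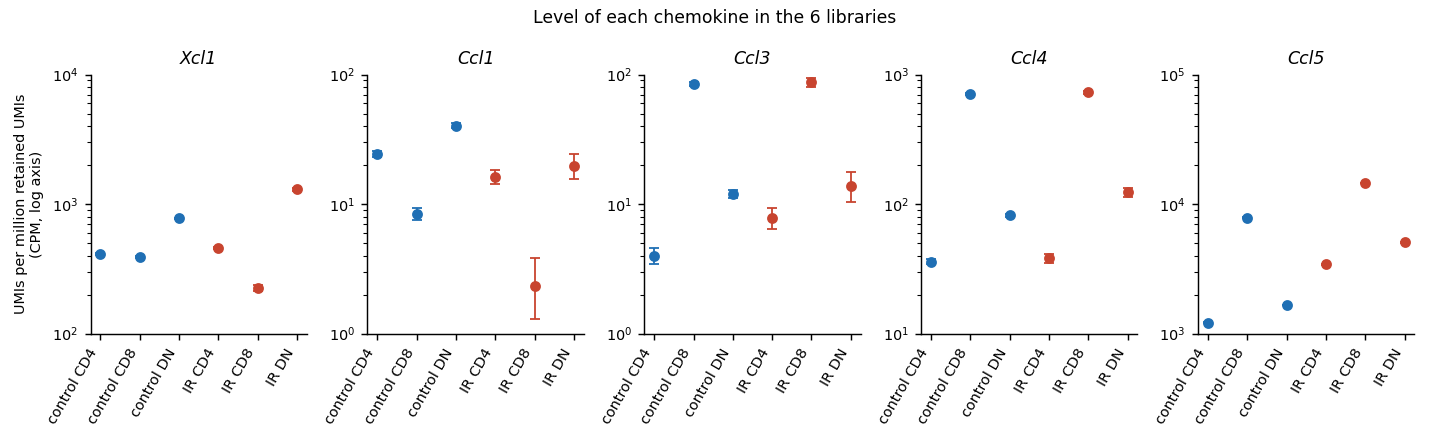
Level of each chemokine gene in the 6 libraries, in CPM on a log axis, with exact 95% Poisson intervals of the summed UMIs (counting error only, 1 library per group). Ccl3, Ccl4 and Ccl5 stand highest in both CD8 libraries, Xcl1 in both DN libraries, and Ccl1 is lowest in both CD8 libraries.

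Xcl1, which encodes the XCR1 ligand, was measured at 411 CPM (405 to 416) in control CD4, 391 CPM (385 to 397) in control CD8 cells and 779 CPM (772 to 786) in control DN. The IR libraries had 457 CPM (447 to 468) in CD4, 225 CPM (214 to 237) in CD8 and 1301 CPM (1267 to 1335) in DN. DN was thus highest in both conditions, IR CD8 was lowest, and no pair of these intervals overlapped, the closest being control CD4 and control CD8. In IR, DN was 5.77-fold above CD8 (log2 ratio 2.53, 2.45 to 2.61) and 2.85-fold above CD4. The corresponding control ratios were 1.99-fold against CD8 and 1.90-fold against CD4, both just under the 2-fold limit. IR over control was 1.67-fold in DN, a log2 ratio of 0.74 (0.70 to 0.78), 0.15 on the log2 scale (0.12 to 0.19) in CD4, and 1.73-fold lower in CD8, a log2 ratio of -0.79 (-0.87 to -0.72). In CD4 the sign rested on the scaling, as the log2 ratio was -0.20 when mitochondrial and ribosomal features stayed in the totals.

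Xcl1 was spread over many cells. At 1000 UMIs per cell it was found in 20.2% (19.4 to 21.1) of control CD4, 17.8% (17.0 to 18.6) of control CD8 and 36.2% (35.2 to 37.2) of control DN cells. In IR the shares were 15.1% (14.4 to 15.8) in CD4, 6.91% (6.29 to 7.58) in CD8 and 40.6% (39.0 to 42.3) in DN. In CD4 the share was thus lower in IR although the CPM was higher, so no order between the conditions is read from it. Before thinning they were 53.2, 44.4 and 85.8% in control and 22.2, 9.19 and 47.6% in IR, a gap that the depth of the libraries moves. As a measure of free RNA only the barcodes removed as non-T cells could be used, with medians of 1485 to 1648 UMIs in the IR libraries. What these barcodes hold is not known, 17.6% and 12.7% of their 2 clusters had a Cd3 UMI and most recur in another library, so they are a loose reference and not cells shown to lack the genes. Where no barcode had a UMI, the limit given is the share that 3 counts of the total would make, not the bound of the exact interval. Xcl1 was found in none of 80 in IR CD4, which allows a share of up to 3.75%, in none of 76 in IR CD8, which allows up to 3.95%, and in 1.41% of 71 in IR DN. The Xcl1 shares of IR T cells were above these values. The control libraries held 9 to 15 such barcodes, too few to use, so the control shares stand without this reference. Among control T cells with a UMI of Ccr7, which are described further on, Xcl1 was found after thinning in 2.73% in CD4 and 5.03% in CD8, and Ccl5 in 8.06% and 37.3%, with median depths of 8023 and 9339 UMIs. The shares over all cells of those libraries were above these values, and Ccr7 cells were not shown to lack the genes. In control DN, 1098 cells together held 50% of the Xcl1 UMIs, and 94 cells did so in IR CD8.

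The genes whose level followed that of Xcl1 most closely across cells were AW112010, Nkg7 (a granule membrane protein of cytotoxic lymphocytes), Ctsw (cathepsin W), Cxcr6 (a receptor of tissue-resident lymphocytes) and Cd52. Their mean Pearson correlations within the 6 libraries were 0.259, 0.230, 0.229, 0.219 and 0.204, given as descriptions over cells that share a library. In thinned IR CD4 cells, Ifng, the gene of interferon-γ, was found in 43.0% of cells with Xcl1 and 20.5% of those without it. Klf2, a transcription factor of quiescent, recirculating T cells, was found in 23.8% against 54.9% there. The same directions were seen in IR CD8 (Ifng 36.2% against 12.2% and Klf2 31.1% against 71.5%). In control DN the intervals of cells with and without Xcl1 overlapped for both genes, with Ifng in 26.9 (25.4 to 28.5) and 25.1% (23.9 to 26.2), and Klf2 in 14.1 (13.0 to 15.4) and 15.4% (14.5 to 16.4).

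**Figure D2:**
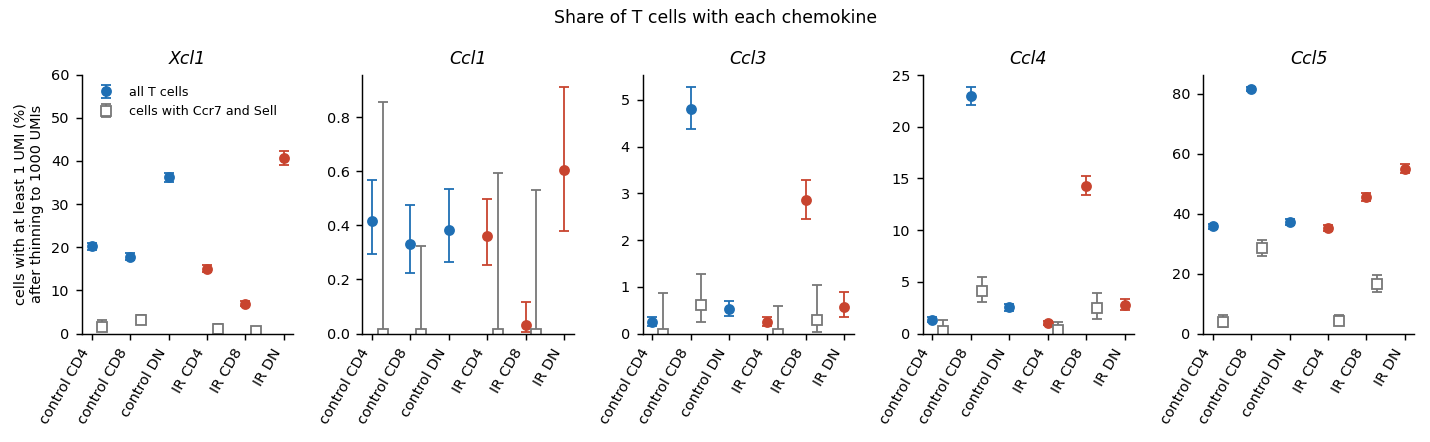
Percent of cells with a UMI of each chemokine gene after each cell was thinned to 1000 UMIs, for the 6 libraries, with exact 95% binomial intervals (counting error only). Xcl1 is found in the largest share of DN cells in both conditions, and the Ccl5 share of CD8 cells is 81.5% in control and 45.5% in IR.

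Ccl1, which encodes the CCR8 ligand, had few UMIs in most cells that carried it and many in a handful. Its level was 24.3 CPM (23.0 to 25.7) in control CD4, 8.41 CPM (7.59 to 9.29) in control CD8 cells and 40.3 CPM (38.7 to 41.9) in control DN. In IR it was 16.1 CPM (14.2 to 18.2) in CD4, 2.33 CPM (1.30 to 3.84, from 15 UMIs) in CD8 and 19.6 CPM (15.7 to 24.2) in DN. CD8 was lowest in both conditions, and the intervals of IR CD4 and IR DN overlapped, as did those of IR DN and control CD4. In control, DN was 4.79-fold above CD8 and 1.66-fold above CD4, and IR DN was 2.05-fold below control DN (log2 ratio -1.04, -1.37 to -0.73).

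Those totals came from a handful of cells. A Ccl1 UMI was found in 148 control CD4, 74 control CD8 and 191 control DN cells, and in 57, 5 and 28 cells of the IR libraries. In control DN, 3 cells held 50% of the 2448 Ccl1 UMIs and 1 cell held 589 of them. The 10 cells with the most UMIs held 68.9 to 79.1% of the total in every library other than IR CD8, where 5 cells held all 15. Without the 5 cells highest for Ccl1 in each library, an alternative chosen after the data were seen, control levels were 11.2 (CD4), 3.43 (CD8) and 14.9 CPM (DN), and IR levels were 5.76, 0 and 6.17 CPM, with the log2 ratio of IR DN over control DN at -1.27 and that of control DN over control CD8 at 2.12. Both ratios depended on the weight of cells: in thinned cells that of IR DN over control DN was -0.64, under the 2-fold limit, and with equal weight per cell that of control DN over control CD8 was 0.25, against 2.26 from the sums. In CD4 the log2 ratio of IR over control was -0.60 (-0.80 to -0.40), and it was 0.33 when the 5% of barcodes with the most UMIs stayed in. Control CD8 cells with Ccl1 had a median of 1236 UMIs, against 6653 in the other cells, and the ratio of control CD8 over control CD4 was 0.18 on the log2 scale when each cell had equal weight, against -1.53 from the sums. After thinning, the share of cells with a Ccl1 UMI was 0.415% (0.294 to 0.569) in control CD4, 0.332% (0.222 to 0.476) in control CD8 and 0.383% (0.266 to 0.535) in control DN. The IR shares were 0.361% (0.253 to 0.499), 0.0325% (0.00394 to 0.117) and 0.603% (0.378 to 0.912). The order of DN above CD8 in control, seen in the CPM, was thus not seen in the share of cells, and no order of these shares is read from them. No non-T barcode of the IR libraries had Ccl1, which allows up to 3.75% in CD4, 3.95% in CD8 and 4.23% in DN, so the Ccl1 shares were not separable from that reference at this depth.

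In control DN, 24 cells had 10 or more Ccl1 UMIs, and after thinning Xcl1 was found in 79.2% of them against 36.1% of the rest. Irf8, a transcription factor of the interferon regulatory family, was found in 37.5% against 2.62%, Tnfrsf9 (the costimulatory receptor 4-1BB) in 29.2% against 2.05%, Csf2 (GM-CSF) in 20.8% against 1.71% and Ifng in 66.7% against 25.6%. In control CD4, 19 such cells had Xcl1 in 73.7% against 20.1%, Irf8 in 47.4% against 1.98% and Tnfrsf9 in 36.8% against 2.37%, while Ifng was at 31.6% (12.6 to 56.5) against 23.4%. Cd83 was found in 12.5% (2.66 to 32.4) against 0.113% in control DN and 5.26% (0.133 to 26.0) against 0.723% in control CD4. Tnfrsf4 was found in 4.17% (0.105 to 21.1) against 0.464% in control DN and 21.1% (6.05 to 45.6) against 3.23% in control CD4. The intervals of Cd83 in CD4 and Tnfrsf4 in DN thus included the rest. The other libraries had 1 to 6 such cells after thinning, too few to compare, and they did not all share these genes: Csf2 was in none of 6 in control CD8 and none of 4 in IR CD4, and Irf8 and Tnfrsf9 were in none of 3 in IR DN. These cells were also deeper, with medians of 13020 against 8370 UMIs in DN and 10270 against 7048 in CD4, and the part of depth that remains after thinning was not tested. Ranked over all genes, those most like Ccl1 across cells were Cd83, Tnfrsf4 (OX40), Rgs16, Csf2 and Irf8, with mean correlations of 0.131, 0.106, 0.104, 0.103 and 0.101 in 5 libraries, which are weak. This ranking used the same cells and is no separate support for the shares above.

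**Figure D3:**
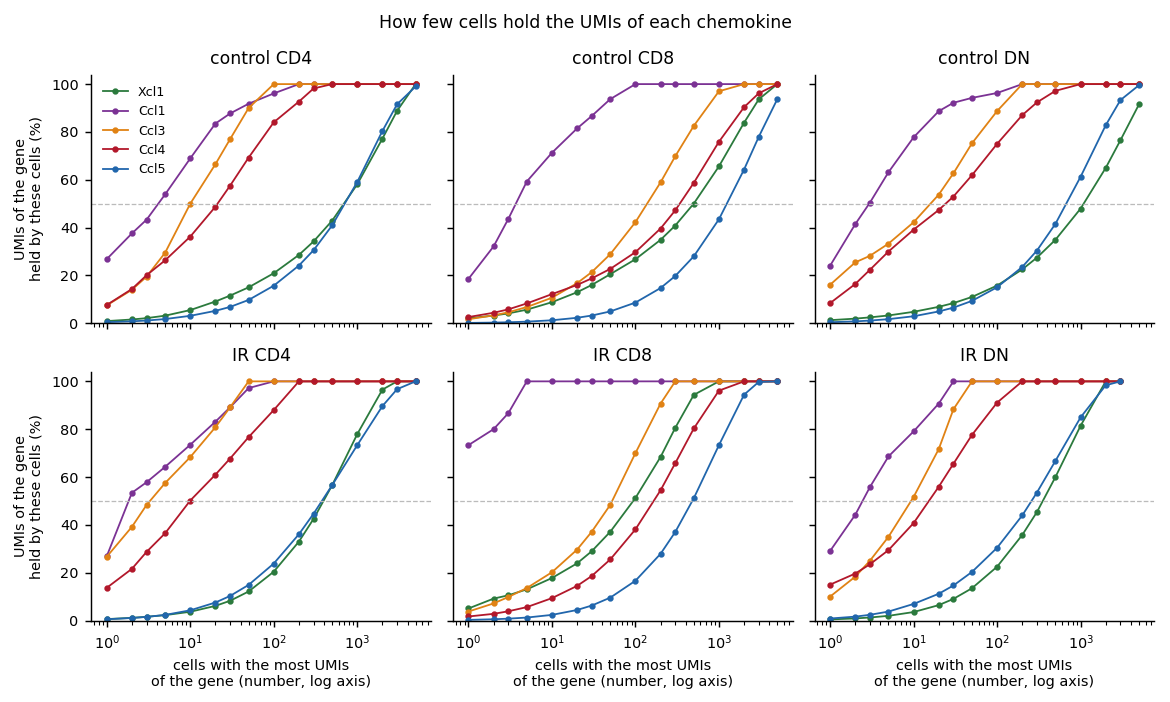
Percent of a gene's UMIs held by the cells with the most of them (y axis), against the number of such cells (x axis), for each chemokine gene and library. The 10 cells highest for Ccl1 hold 68.9% or more of its UMIs in every library, while at least 94 cells are needed to hold 50% of the Xcl1 or Ccl5 UMIs, and outside CD8 4 to 17 cells hold 50% for Ccl3 and 10 to 25 for Ccl4.

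Ccl3 and Ccl4, which encode macrophage inflammatory proteins 1α and 1β, were highest in CD8 in both conditions. Ccl4 was at 35.9 CPM (34.3 to 37.6) in control CD4, 708 CPM (700.0 to 716) in control CD8 cells and 81.7 CPM (79.4 to 84.0) in control DN. In IR it was at 38.3 CPM (35.2 to 41.5), 728 CPM (708 to 750) and 123 CPM (113 to 134) in the same order of subsets. Both CD8 libraries therefore stood far above the rest and overlapped with each other, DN came next, and the CD4 libraries overlapped. CD8 exceeded CD4 19.7-fold in control (log2 ratio 4.30, 4.23 to 4.37) and 19.0-fold in IR (4.25, 4.13 to 4.38). DN was above CD4 by 2.27-fold in control and 3.22-fold in IR. IR over control gave a log2 ratio of 0.04 (-0.003 to 0.086) in CD8, 0.09 (-0.05 to 0.23) in CD4 and 0.59 (0.46 to 0.72) in DN.

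Ccl3 was at 3.96 CPM (3.43 to 4.54) in control CD4, 84.8 CPM (82.1 to 87.5) in control CD8 cells and 12.0 CPM (11.1 to 12.9) in control DN. The IR libraries had 7.76 CPM (6.43 to 9.27), 86.9 CPM (79.9 to 94.4) and 13.7 CPM (10.4 to 17.6). Its order was that of Ccl4, with CD8 above CD4 by 21.4-fold in control and 11.2-fold in IR, and control and IR overlapping in CD8 and in DN. In CD4 the ratio of IR over control was 0.97 on the log2 scale (0.63 to 1.31), with both libraries under 10 CPM. That CD4 ratio moved with a cluster of 238 cells, led by S100a9, S100a8, C1qa, Apoe, C1qc and H2-Aa, which are myeloid and antigen-presentation genes, although 82.4% of its cells had a UMI of a Cd3 gene. In IR CD4 its 101 cells held 47.5% of the Ccl3 and 26.4% of the Ccl4 UMIs, and in control CD4 its 63 cells held 15% and 3.69%. In the other 4 libraries it held at most 5% of either, and summed myeloid markers were at 106 CPM in control CD4 and 247 CPM in IR CD4. The ratios of CD8 over CD4 for both genes included these cells. No change of the Ccl3 ratio from 21.4-fold in control to 11.2-fold in IR is therefore read. Without the cells that had 2 or more UMIs of C1q or MHC class II genes, the CD4 log2 ratio of Ccl3 was 0.29 and that of Ccl4 was -0.28, and without cells that had 2 or more UMIs of the myeloid markers that of Ccl3 was 0.13.

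At 1000 UMIs per cell, Ccl4 was found in 23.0% (22.1 to 23.9) of control CD8 and 14.3% (13.4 to 15.2) of IR CD8 cells, and in 1.03 to 2.74% of the cells of the other 4 libraries. Ccl3 was found in 4.81% (4.37 to 5.28) and 2.85% (2.45 to 3.29) of CD8 cells and in 0.240 to 0.576% elsewhere. No non-T barcode of the IR libraries had a thinned UMI of either gene, which allows up to 3.75% in CD4, 3.95% in CD8 and 4.23% in DN. The Ccl4 share of IR CD8 was above that limit, and the Ccl4 shares of IR CD4 and IR DN and the Ccl3 shares of all 3 IR libraries were not separable from it. The IR over control ratio of CPM in CD8 included 1 for both genes while the shares were lower in IR, and no order between the conditions is read from those shares.

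The gene most like Ccl3 across cells was Ccl4, and Ccl3 was the gene most like Ccl4, with a mean correlation of 0.278 over the 6 libraries (0.183 to 0.365). Next for Ccl4 were Ccl5 (0.224), Nkg7 (0.136), S100a6 (0.126) and Gzma, which encodes the protease granzyme A (0.122). For Ccl3 they were Ccl5 (0.121), Plek (pleckstrin, 0.098), H2-Eb1 (an MHC class II chain, 0.080) and Tyrobp (a signalling adaptor of myeloid and natural killer cells, 0.077). The mean for H2-Eb1 was over 4 libraries only (-0.002 to 0.190). H2-Eb1 was also among the leading genes of the cluster of 238 cells above, at 2314 CPM against 4.08 CPM in the other T cells. In IR CD8, Ifng was found in 36.0% of cells with Ccl4 and 10.2% of cells without it, Gzmb (granzyme B) in 19.8% against 4.19% and Gzma in 17.8% against 3.32%. Cells with Ccl3 had Ifng in 36.6% against 13.2% and Gzmb in 26.3% against 5.84%.

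Ccl5, also called RANTES and known as a gene of memory and effector T cells, was at 1216 CPM (1207 to 1226) in control CD4, 7859 CPM (7833 to 7885) in control CD8 cells and 1663 CPM (1653 to 1673) in control DN. The IR libraries had 3431 CPM (3402 to 3461) in CD4, 14500 CPM (14407 to 14593) in CD8 and 5058 CPM (4991 to 5125) in DN. The order CD8, DN, CD4 held in both conditions, each IR library stood above its control, and no intervals overlapped. IR over control was 2.82-fold in CD4 (log2 ratio 1.50, 1.48 to 1.51), 1.85-fold in CD8 (0.88, 0.87 to 0.89) and 3.04-fold in DN (1.61, 1.58 to 1.63). Across all alternatives run these ratios ranged from 1.14 to 1.61 in CD4, 0.46 to 1.08 in CD8 and 1.43 to 1.69 in DN on the log2 scale. CD8 exceeded CD4 6.46-fold in control and 4.23-fold in IR, and exceeded DN 4.73-fold and 2.87-fold.

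More Ccl5 per library was not the same as more cells with Ccl5. Thinned shares were 35.7% (34.7 to 36.7) in control CD4, 81.5% (80.7 to 82.4) in control CD8 and 37.1% (36.1 to 38.1) in control DN. In IR they were 35.1% (34.2 to 36.1), 45.5% (44.3 to 46.8) and 55.0% (53.4 to 56.6). In CD8 the share was thus lower in IR although the CPM was higher, so no order between the conditions is read from it. Thinning to 500 UMIs of the retained features, added because ribosomal genes took different parts of the 1000, gave 27.5, 77.9 and 31.4% in control and 32.0, 47.0 and 49.1% in IR. The number of thinned Ccl5 UMIs per cell with any was 2.56 (CD4), 7.29 (CD8) and 3.27 (DN) for the controls, against 5.99, 17.7 and 6.07 for IR. Cells with 20 or more Ccl5 UMIs after thinning made up 4.77% of control CD8 and 14.6% of IR CD8, 0.142% and 2.27% of CD4, and 0.282% and 2.80% of DN. The non-T barcodes of the IR libraries had Ccl5 in 10.0% (CD4), 26.3% (CD8) and 1.41% (DN), and the shares of IR T cells were above these values.

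**Figure D4:**
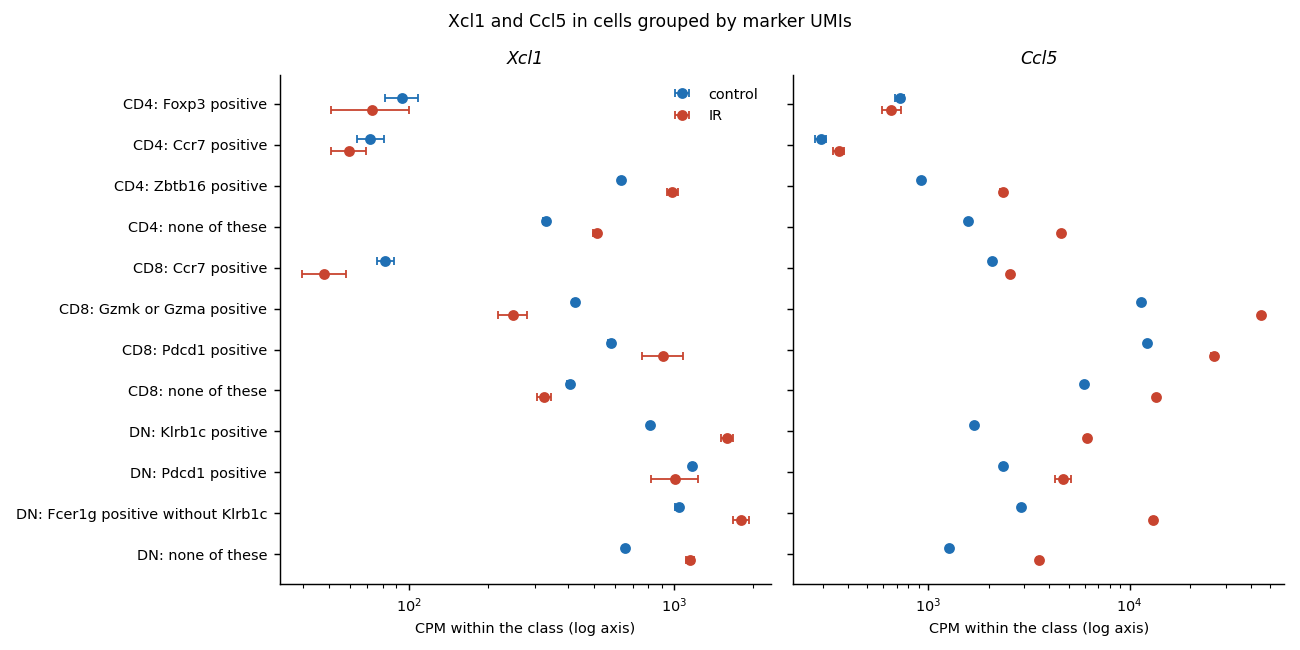
Level of Xcl1 and of Ccl5 in CPM (log axis) in cells grouped within each library by a UMI of a marker gene, control beside IR, with exact 95% Poisson intervals. Ccl5 is higher in IR than in control for each CD8 and DN group drawn, and Ccr7-positive cells are the lowest CD8 group for Xcl1 and Ccl5.

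Nkg7 (0.376), AW112010 (0.371), S100a6 (0.314), Itgb1 (integrin β1, 0.278) and Tmsb4x (thymosin β4, 0.267) were most like Ccl5 across cells, by mean correlation over the 6 libraries. In IR CD8, cells with and without Ccl5 differed in thinned shares. Ifng was found in 29.2% (27.5 to 30.9) of cells with Ccl5 and in 1.02% (0.704 to 1.42) of the others, Nkg7 in 69.4% against 28.9%, Gzma in 11.8% against 0.0299%, Gzmk in 12.1% against 0.179% and Tbx21 (T-bet) in 7.21% against 0.269%. Klf2 went the other way, in 48.5% of cells with Ccl5 and 85.6% of cells without it. Control CD8 had the same directions with smaller gaps, Ifng in 22.0% against 6.01% and Klf2 in 24.5% against 55.5%. In DN, Klf2 was more often found in cells with Ccl5, at 18.6% against 12.8% in control and 33.5% against 19.3% in IR.

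Within a library the members were combined in ways that differed by subset. All 10 pairs were tabulated as the share of cells with the second gene among cells with the first, after thinning. Ccl4 was found in 56.2% of the 420 control CD8 cells with Ccl3 and in 21.3% of those without it, and in IR CD8 in 76.6% of 175 cells against 12.5%. In the other libraries 21 to 46 cells had Ccl3, and Ccl4 was found in 22.7 to 41.7% of them against 0.934 to 2.54% of the rest. The ends of that range were control CD4 and IR CD4, where the cluster led by myeloid genes held part of both genes. Without cells that had 2 or more myeloid UMIs, the shares were 16.7% of 18 cells in control CD4 and 31.6% of 19 in IR CD4. In DN they were then 27.8% of 36 cells in control and 38.9% of 18 in IR.

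Xcl1 and Ccl5 split the subsets differently. In control CD8, 65.0% of cells had Ccl5 without Xcl1, 16.5% had both and 1.24% had Xcl1 alone, whereas in control DN these shares were 21.9%, 15.1% and 21.1%. IR CD8 had 39.0%, 6.54% and 0.374%, and IR DN had 30.3%, 24.7% and 15.9%. Xcl1 without Ccl5 was therefore mostly seen in DN and in CD4, where it was 11.6% in control and 6.39% in IR. Ccl5 was found more often among cells with Xcl1 than among the rest in each library, in 42.5% against 34.0% in control CD4, 93.1% against 79.1% in control CD8 and 41.8% against 34.4% in control DN. The IR values were 57.6% against 31.1%, 94.6% against 41.9% and 60.9% against 51.0%.

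Among cells with Ccl1, Xcl1 was found in 52.6% against 20.1% of other cells in control CD4, 69.0% against 17.6% in control CD8 and 79.4% against 36.0% in control DN, and in IR in 44.4% against 15% (CD4) and 59.1% against 40.5% (DN). The IR DN share came from 22 cells with Ccl1, and its interval included the 40.5% of the other cells. Ccl5 was found in 23.7% (11.4 to 40.2) of 38 control CD4 cells with Ccl1 and 35.7% of those without, and in 38.2% (22.2 to 56.4) of 34 and 37.1% in control DN. The IR values were 33.3% (18.6 to 51.0) of 36 and 35.1% in CD4 and 36.4% (17.2 to 59.3) of 22 and 55.1% in DN. Without thinning the IR CD4 values were 64.9% (51.1 to 77.1) and 42.9% (42.0 to 43.9), so the relation of Ccl1 to Ccl5 there changed with the depth at which it was read. The mean correlation of Ccl1 and Ccl5 across cells was -0.002 (-0.019 to 0.011). In IR CD8 only 2 thinned cells had Ccl1, too few for a share.

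**Figure D5:**
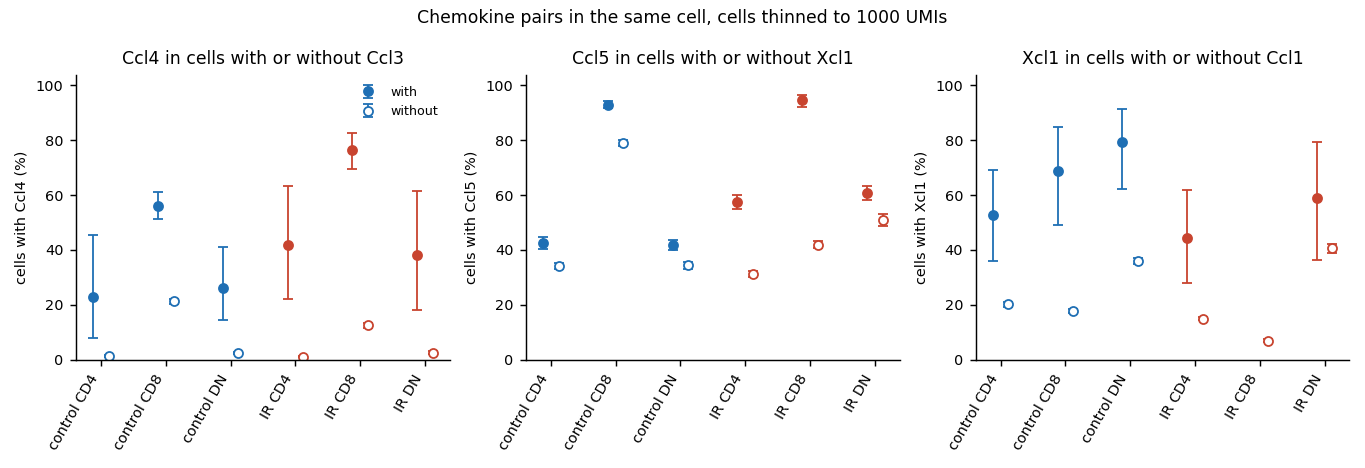
Percent of cells with the second gene among cells with the first (filled) and among cells without it (open), after thinning to 1000 UMIs, for 3 pairs of the chemokine genes in the 6 libraries (control blue, IR red), with exact 95% binomial intervals. Ccl4 is found in 22.7 to 76.6% of cells with Ccl3 and in at most 21.3% of cells without it.

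Cells were also grouped within each library by a UMI of marker genes named for these subsets, with no thinning, so that membership depends on depth. Control and IR cells also lay almost wholly in different clusters (3405 of the 4042 IR DN cells shared a cluster with 4 control DN cells), so a group compared between conditions holds cells of different clusters. In CD8, 3946 control and 834 IR cells had a UMI of Gzmk or Gzma, granzymes of effector cells. Their Ccl5 was 11410 CPM in control and 45060 CPM in IR, their Ccl4 1001 and 1955 CPM and their Ccl3 136 and 284 CPM, while their Xcl1 was 424 and 248 CPM. Cells with Ccr7, a lymph node homing receptor, had the lowest Ccl5 of the CD8 groups (2090 and 2546 CPM) and the lowest Xcl1 (81.8 and 48.2 CPM), and they made up 16.8% of control and 37.5% of IR CD8 cells. Cells with Pdcd1, the inhibitory receptor PD-1, had Ccl4 at 1356 and 1651 CPM and Xcl1 at 579 and 914 CPM, from 1654 and 123 cells. CD8 cells with none of these markers had Xcl1 at 408 and 324 CPM.

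In DN, cells with Klrb1c, which encodes NK1.1, had Xcl1 at 813 CPM in control and 1595 CPM in IR and Ccl5 at 1683 and 6140 CPM. Those with Fcer1g but not Klrb1c had Xcl1 at 1045 and 1791 CPM, Ccl5 at 2886 and 13120 CPM and Ccl4 at 162 and 297 CPM. DN cells with none of the markers had Xcl1 at 657 and 1151 CPM and Ccl5 at 1278 and 3540 CPM, so both genes were higher in IR in each of these 3 groups. In the Pdcd1 group, of 756 control and 92 IR cells, Ccl5 was likewise higher in IR (2350 and 4690 CPM), while the intervals of Xcl1 overlapped, at 1175 CPM (1148 to 1203) and 1011 CPM (820 to 1233), and its Ccl1 was 207 CPM in control and 31.3 CPM (6.45 to 91.4) in IR. That Ccl1 level rested on few cells, since 1 cell held 589 of the 1233 UMIs in control and the IR value came from 3 UMIs. Markers of natural killer cells were at 128 CPM in control DN and 78.4 CPM in IR DN, and of γδ T cells at 334 and 246 CPM. Without the cells that had an Ncr1 or Trdc UMI the log2 ratio of IR DN over control DN was 0.78 for Xcl1.

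In CD4, cells with Zbtb16, the transcription factor of innate-like T cells, had Xcl1 at 632 CPM in control and 989 CPM in IR. Their Ccl1 was at 55.8 and 25.2 CPM, but 3 cells held at least 50% of its UMIs in each condition and the thinned share of cells with it was 0.847% in control and 1.25% in IR, so no direction is read from these values. Cells with Foxp3, the regulatory T cell factor, had Xcl1 at 94.3 and 72.6 CPM and Ccl5 at 725 and 657 CPM, and cells with Ccr7 had Xcl1 at 71.8 and 59.5 CPM and Ccl5 at 293 and 361 CPM. The remaining CD4 cells held more Ccl5 than any of these, 1580 CPM in control and 4560 CPM in IR, and Ccl5 was also higher in IR in the Zbtb16 group (929 and 2344 CPM). In the Ccr7 group the intervals did not overlap either (276 to 311 and 340 to 383 CPM), and in the Foxp3 group they did.

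Among the receptor genes of these ligands, Ccr8, the receptor of CCL1, was at 12.3, 1.05 and 7.06 CPM in control and 8.72, 1.24 and 8.89 CPM in IR, in the order CD4, CD8 and DN. Xcr1, named because it is the receptor of XCL1 although it differed in no comparison, did not exceed 1.31 CPM. Among 32 other chemokine ligands, 28 were matched to a single row, 3 of them reached 10 CPM and 4 had no UMI. Cxcl2, a neutrophil-attracting chemokine of myeloid cells, was higher in IR in each subset, from 1.01, 0 and 0.05 CPM to 22.4, 15.5 and 14.6 CPM. The other 2 ligands that reached 10 CPM differed in none of the 9 comparisons.

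Other genes that such cells are known to transcribe were counted by list. As given above, 7.73% of all genes were higher and 15.1% lower in IR in CD4, 7.93% and 17.7% in CD8, and 8.32% and 11.3% in DN. Of 18 activation genes, 5 were higher and 3 lower in IR CD4 than in control CD4 of 15 tested, 2 higher and 5 lower of 15 in CD8, and 7 higher and 3 lower of 16 in DN. Their median log2 ratios were 0.39, -0.10 and 0.73, beside -0.26, -0.38 and -0.26 over all genes tested. Nr4a1, an early gene of T cell receptor signalling, was higher in all 3 subsets (2.42, 2.23 and 2.25), as was Nfkbia, an inhibitor of NF-κB (2.39, 1.57 and 2.21). In CD4 and in DN, Tnfrsf9 (1.51 and 1.63), Nr4a3, a relative of Nr4a1 (1.18 and 1.75), and Bhlhe40, a transcription factor of cytokine-producing T cells (1.43 and 1.68), were also higher. Ifng was higher in DN (1.12, from 475 to 1035 CPM), as was Csf2 (1.44). Irf8 was lower in all 3 (-1.34, -1.10 and -1.49). Il2, the gene of interleukin-2, was lower in CD4 and CD8 (-1.25 and -1.92), as was Nr4a2 (-1.19 and -1.40). Tnf was lower in CD8 (-1.27), Crtam in CD8 and DN (-1.10 and -1.04) and Irf4 in DN (-1.01). Of the 6 granule genes (Gzma, Gzmb, Gzmk, Gzmm, Prf1 and Nkg7), all were higher in CD8 than in CD4 in both control and IR, as Ccl3, Ccl4 and Ccl5 were, with median log2 ratios of 3.13 and 1.97, beside 0.03 and -0.08 over all genes; 1.75% and 3.9% of all genes were higher there. In IR against control, 2 granule genes were higher and none lower in CD4 (5 tested), 1 higher and 1 lower in CD8 (6 tested) and none higher and 1 lower in DN (4 tested), beside 22.8%, 25.6% and 19.6% of all genes in either direction. Gzma was higher in IR in CD4 (2.46) and in CD8 (1.64), Gzmb was higher in CD4 (1.94), and Prf1, which encodes perforin, was lower in CD8 (-1.84) and in DN (-1.48). Of 9 transcription factors, 2 were higher and 1 lower in IR CD4 (7 tested), 2 higher and 2 lower in IR CD8 (8 tested) and 1 higher and 1 lower in IR DN (7 tested), against the same shares of all genes. Klf2 was higher in all 3 (2.29, 2.31 and 1.55) and Tbx21 was lower in all 3 (-1.71, -1.80 and -1.31). Batf was higher in CD4 and CD8 (1.22 and 1.12), and Eomes, a relative of Tbx21, was lower in CD8 (-1.06). Between CD8 and CD4, Eomes was higher in CD8 in control and IR (5.93 and 3.80), as was Runx3, a transcription factor of the CD8 lineage (1.41 and 1.34).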

How the data were processed

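The 6 10x 3′ v3.1 libraries, 1 per group, were analysed from the deposited filtered matrices of raw UMI counts, each the number of molecules of a gene under a cell barcode, produced by the authors' Cell Ranger runs on mm10 (the file headers name 5.0.1 for control and 6.0.1 for IR). Groups follow the sample titles. Barcodes with at least 500 features, at most 20% mitochondrial UMIs and outside the 5% with the most UMIs of each library were kept (48277). They were clustered together in scanpy 1.11.5 (2000 variable genes, 30 components, 15 neighbours, Leiden resolution 1, igraph 0.11.9), and 2 of 24 clusters in which under 50% of cells had a Cd3d, Cd3e or Cd3g UMI were removed (339 barcodes). No doublet caller was run, the removal of the top 5% being the only step against doublets.

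UMIs were summed over the T cells of a library and divided by the total of the retained features (105 were set aside: mitochondrial genes, ribosomal genes and Malat1), between 4385850 and 60767827 UMIs per library. A single UMI was worth 0.0165 to 0.228 CPM. A gene was counted as different between libraries at 10 CPM or more in the higher library and at least 2-fold, with a sum of 0 set to 3 counts, and 8748 to 9200 genes were tested in each of the 9 comparisons. Shares were read in cells thinned without replacement to 1000 UMIs, leaving out 30 to 565 shallower cells per library. Likeness was the mean over libraries of Pearson's correlation of log(1 + counts per 10000) across cells, over genes at 10 CPM or more in at least 1 library and found in at least 20 cells of at least 3 libraries, and the 5 highest genes were named. Genes of the lists (receptors, other ligands, activation, granule, transcription factors) were named where they differed between IR and control, by that rule, and those that differed only between subsets were named in part. Xcr1 was named outside this rule. A receptor gene and a reference group of T cells among the planned results are not reported here. Log2 ratios carry exact conditional Poisson intervals.

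The chemokine genes, the lists and the rules were chosen with earlier results of these data known. Alternatives were TMM (edgeR 4.0.16) and DESeq2 1.42.0 size factors in R 4.3.3, other filters, weights, thinning depths and thresholds. Added after the data were seen were thinning to 500 retained UMIs and leaving out cells with C1q or MHC class II UMIs or the 5 cells highest for a gene. Scripts were run in Python 3.11.15 (numpy 2.4.6, scipy 1.17.1, matplotlib 3.10.9) and tested on simulated data. Sequences were read from mm10 with GENCODE M21.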

Additional observations from a re-analysis of the deposited data

Results flagged for a closer look

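Xcl1 was the only one of the chemokine genes whose difference between IR and control ran in opposite directions between subsets with counting intervals that exclude 0 on both sides and at least 10 CPM. Its log2 ratio of IR over control was 0.15 in CD4, 0.74 in DN and -0.79 in CD8. In CD4 the thinned share of cells with Xcl1 went the other way, from 20.2% in control to 15.1% in IR. With 1 library per group the difference between these ratios was not tested. In CD8 the ratio was negative under all 14 alternatives run (-1.22 to -0.60). In DN it was positive under all 14 (0.56 to 0.81), while in CD4 it was negative under 1 of the 14, at -0.20. The paper that reported these data gives the opposite direction in DN. Its single-cell comparison lists Xcl1 as enriched in control DN cells relative to ischemic DN cells. That comparison was not rerun here, and why the directions differ was not tested.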

How the results depend on the processing

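No fit with subset as a block was made: with 1 library per group its error would be the difference between subsets. No replicate could be left out of a group. Of the log2 ratios recomputed under the alternatives, 362 stayed inside the counting interval of the main value, 261 left it and 1 that passed the 2-fold rule turned its direction, that of Ccl1 in control CD8 over control CD4, at 0.18 with equal weight per cell. Of the 20 ratios that did not pass that rule, 7 changed sign under at least 1 alternative, among them those of Xcl1, Ccl1 and Ccl4 in IR CD4 over control CD4 (lowest and highest values -0.20 and 0.30, -2.49 and 0.33, and -0.48 and 0.20). For levels these counts were 198 and 222, for shares of cells 167 and 103, and for co-detection 45 and 9, while of the numbers of chemokine genes counted as different 247 stayed the same or close and 41 changed. The cause of these changes was not tested. Relative to the main scaling, DESeq2 size factors moved the median log2 ratio of IR over control by 0.11 in CD4, 0.20 in CD8 and 0.08 in DN, and keeping the removed features in the totals moved it by -0.37, -0.43 and -0.18.

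The number of the 5 genes lower in IR DN against control DN was 0 in place of 1 with DESeq2 factors, with the top 5% of barcodes kept, without barcode filters, without Ncr1 or Trdc cells, in thinned cells, with equal weight per cell, without the top 1% of cells and with a minimum of 50 CPM. The number lower in IR CD8 than in control CD8 was 1 in place of 0 with the removed features kept, with the top 5% kept, without barcode filters, in thinned cells, with equal weight per cell, without the top 1% of cells and without a minimum CPM, and the number higher there was 1 with DESeq2 factors. Without barcode filters 2 were higher in IR CD4 than in control CD4. In control DN over CD4, 1 was higher with the removed features kept, without the 5 highest cells and at 50 CPM, and 0 without Ncr1 or Trdc cells. In control DN over CD8, 2 were higher with the removed features kept, the top 5% kept, no barcode filters and without the 5 highest cells, and 0 with equal weight or at 50 CPM. In control CD8 over CD4, 0 were lower in thinned cells, with equal weight, without the top 1% of cells and at 50 CPM. In IR DN over CD8, 1 was higher without the top 1%, without the 5 highest cells and at 50 CPM, and in IR CD8 over CD4, 1 was lower with TMM, DESeq2 factors, the removed features kept, thinned cells, without the top 1%, without the 5 highest cells and at 50 CPM. The share of Ccl3 cells with Ccl4 was 80.6% in control CD8 and 45.6% in control DN without thinning, 47.0% in control CD8 at 500 UMIs, 63.0% in control CD8, 54.5% in control DN, 66.7% in IR CD8 and 0% in IR DN when 2 UMIs were required, and 50.8% in control CD8 and 66.9% in IR CD8 at 500 retained UMIs. The smallest sum was that of Ccl1 in IR CD8, 15 UMIs.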
